A study of Mus musculus with 24 samples.

Results

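The comparison described here is injury against SHAM in young mice, 3 days after surgery. Its members were taken from the sample labels and were 6 of the 24 samples of the series, 3 SCI and 3 SHAM libraries. All 6 came from the sensorimotor cortex of male C57BL/6J mice operated on at postnatal day 15 (P15). SCI mice had a complete cervical transection of the spinal cord, and in SHAM mice, which the labels call wild type and control, the cord was exposed and left intact. Samples were collected individually. According to the methods, layer V was cut from the cortex, while the same paragraph speaks of the entire sensorimotor area, so the share of neurons that project to the cord is not known, and fewer cells of a type and less of a miRNA per cell cannot be told apart. Small RNA was sequenced with HD adapters, which carry degenerate nucleotides at the ends that ligate. The comparison asks which cortical miRNAs differed in young mice after the spinal cord was cut.

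A miRNA is a short RNA cut from one arm (5p or 3p) of a hairpin precursor. Loaded into an Argonaute protein, it pairs with target mRNAs mostly through its seed, bases 2 to 8, and lowers their translation and stability. The arm that is loaded less often is called the passenger arm. In the cortex, miR-124, miR-9 and miR-128 are carried at high levels by neurons, miR-219 and miR-338 mark the differentiation of oligodendrocytes, and miR-223 and miR-150 come mostly from blood leukocytes.

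Libraries held 8369595 to 44026755 reads. SHAM replicates 1 and 2 stood apart. Sequences seen a single time made up 33.8% and 35.6% of the different sequences they held, compared with 80.8 to 81.9% in SHAM replicate 3 and the SCI libraries, and 72.2 to 86.4% in the other 18 libraries. Ribosomal RNA took 4.99% and 5.01% of their reads, against 0.330% in SHAM replicate 3, 0.303 to 0.599% in SCI and 0.337 to 1.66% in the other 18. Hairpin reads made up 61.3% and 59.4% of theirs, 72.2% in SHAM replicate 3 and 70.3 to 72.2% in SCI. These shares have 95% Wilson intervals at most 0.0682 percentage points wide, for counting error only. The neuronal markers of the labelled tissue were abundant, with 1406562 to 2404392 normalised read counts of miR-9-5p and 104554 to 166448 of miR-124-3p. Of the hindbrain and cord markers, miR-196a-5p was at 0 to 4.0, while miR-10b-5p held 167 to 806 and miR-10a-5p 80 to 190, and the list summed to 362 to 910 in SHAM and 322 to 532 in SCI. Because SHAM replicates 1 and 2 stood apart, the main results are given against each SHAM library as well as over all 3.

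Over all 3 SHAM libraries, no miRNA was DE. The quasi-likelihood test of edgeR on 1008 miRNAs gave 0 (0%) that passed both limits, 0.05 on the p adjusted by Benjamini-Hochberg and 1 on the size of the log2 fold change, and the lowest adjusted p was 0.108. At an unadjusted p under 0.05, 46 miRNAs (4.56%) were higher and 169 (16.8%) were lower in SCI. DESeq2, run as an alternative, called 117, of which 5 were higher. SCI and SHAM values overlapped for 63 of those 117, and for 757 of all 1008 miRNAs. The coefficient of biological variation was 0.426, and 0.176 when SHAM replicates 1 and 2 were left out. Without these 2, a single SHAM library was set against the 3 SCI libraries on the assumption that it varies as they do, and 7 of 984 miRNAs (0.711%) were called, 5 of them higher. Without SHAM replicate 3, 353 were called, 130 of them higher, and leaving out any other single library gave 0.

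A second way to read the 6 libraries uses ranks alone. The 3 SCI values lay above every SHAM value for 136 of the 1008 miRNAs (13.5%) and below every SHAM value for 115 (11.4%). For 10 (0.992%) and 14 (1.39%) of all tested, the SCI mean was also over 1 log2 unit from the nearest SHAM library. With 3 libraries against 3, an exact permutation test of such a miRNA gives p = 0.10, the lowest this design allows. Among the 617 miRNAs with a mean normalised read count of at least 50, 105 lay above and 63 below all SHAM libraries. The 10 farthest from the nearest SHAM library in each direction are described next.

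The miRNAs above every SHAM library are shown with their mature sequences because several are the less loaded arm of their hairpin and could be mistaken for the better known one. The seed is in capitals. Sequences were taken from RefSeq (GRCm38.p6).
miR-6481: cACUGAAAaugcuuagaug
miR-202-5p: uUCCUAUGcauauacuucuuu
miR-26a-1-3p: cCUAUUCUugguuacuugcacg
miR-26a-2-3p: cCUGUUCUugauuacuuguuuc
miR-1264-3p: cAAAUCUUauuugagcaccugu
miR-21a-3p: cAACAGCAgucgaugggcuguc
miR-181b-1-3p: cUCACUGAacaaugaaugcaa
miR-758-3p: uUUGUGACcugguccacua
No 2 of these 8 share a seed.

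miR-26a-1-3p, the passenger arm of a hairpin in an intron of Ctdspl (mature arm at chr9:119031850-119031871, plus strand), held 69.7, 253 and 167 normalised read counts in SHAM replicates 1 to 3 and 665, 592 and 617 in SCI. All SCI values lay well above all SHAM values and close to each other. The SCI mean was 8.83-fold, 2.46-fold and 3.71-fold that of SHAM replicates 1, 2 and 3. The log2 fold change was 1.97 ± 0.43 (SE, n = 3 and 3; edgeR adjusted p = 0.108), and 1.95 against SHAM replicate 3 alone (edgeR adjusted p = 0.012). Its sister miR-26a-2-3p, from an exon of Ctdsp2 (chr10:126995581-126995602, plus), differed less. It held 159, 140 and 162 in SHAM and 308, 242 and 214 in SCI, a difference of 0.64 to 0.84 log2 units from each SHAM library. The loaded arm, miR-26a-5p, a very abundant miRNA with roles in growth control, overlapped between the groups, with a log2 fold change of 0.15 ± 0.23 and differences of 0.18, 0.44 and -0.11 from the 3 SHAM libraries.

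miR-6481 (chr3:99199367-99199385, minus strand, antisense to an intron of Wars2) held 89.1, 113 and 68.7 in SHAM and 405, 444 and 315 in SCI. It was the miRNA farthest from its nearest SHAM library at this abundance, with a log2 fold change of 2.15 ± 0.34 (edgeR adjusted p = 0.108; 2.54 and adjusted p = 0.017 against SHAM replicate 3 alone). Its reads also match a mitochondrial tRNA, so that their origin cannot be told apart. Mitochondrial tRNA as a whole took 1.44, 0.521 and 1.68% of reads in SHAM and 1.41, 1.54 and 1.43% in SCI, with no order between the groups.

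miR-202-5p, best known from the gonads, held 54.2, 43.3 and 79.2 in SHAM and 292, 215 and 159 in SCI. The SCI mean was 3.91-fold, 4.88-fold and 2.70-fold the 3 SHAM values. These were low levels, from 28 and 13 reads in SHAM replicates 1 and 2. miR-21a-3p is the passenger arm of miR-21, a miRNA that rises in reactive glia and in many injured tissues. It held 23.2, 0 and 52.5 in SHAM and 93.6, 118 and 93.3 in SCI. Against the 0 reads of SHAM replicate 2, the SCI mean was at least 10.2-fold higher than the 3 reads that a count of 0 allows in that library, and it was 1.91-fold that of SHAM replicate 3. miR-21a-5p, the loaded arm, did not share this order, with 72977, 48059 and 106011 in SHAM and 91734, 84878 and 90760 in SCI. The log2 ratio of the 5p to the 3p arm was 11.6, 15.6 and 10.95 in SHAM and 9.92, 9.47 and 9.91 in SCI, where the second SHAM value rests on the pseudocount of 1.

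miR-1264-3p, from an intron of the serotonin receptor gene Htr2c (chrX:147010655-147010676, plus), held 87.2, 80.0 and 85.6 in SHAM and 251, 230 and 102 in SCI. The SHAM values were close together, and SCI replicate 3 lay just above them. miR-181b-1-3p, a passenger arm, held 81.4, 96.7 and 409 in SHAM and 530, 739 and 716 in SCI, so its distance from SHAM replicate 3 was 0.68 log2 units and from the other two 2.75 and 2.99. miR-758-3p, of the imprinted Dlk1-Dio3 cluster, held 2373, 6643 and 7257 against 12216, 11042 and 9980. miR-34c-5p, a p53 target that is abundant in ciliated cells, held 3078, 3153 and 4777 against 10426, 7345 and 4933. SCI replicate 3 exceeded SHAM replicate 3 by little for this miRNA. The tenth, miR-3069-3p, lies in an exon of the small Cajal body RNA Scarna13, and its reads match both. It held 40.7, 6.67 and 68.7 in SHAM, the second from 2 reads, and 119, 114 and 117 in SCI. Against those 2 reads the SCI mean was 17.5-fold (counting interval 4.84 to 144).

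The miRNAs below every SHAM library are shown next because most of them are rich in G and C, a property taken up again further on. Capitals again mark the seed.
miR-671-5p: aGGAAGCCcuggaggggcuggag
miR-483-3p: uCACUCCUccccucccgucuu
miR-214-3p: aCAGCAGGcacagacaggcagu
miR-199a-5p: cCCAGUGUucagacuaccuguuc
miR-92b-5p: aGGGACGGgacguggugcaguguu
miR-150-3p: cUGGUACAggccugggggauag
miR-1224-3p: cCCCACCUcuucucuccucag
miR-128-2-5p: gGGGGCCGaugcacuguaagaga
The GC content of these mature sequences was 69.6% for miR-671-5p, 61.9% for miR-483-3p, 59.1% for miR-214-3p, 52.2% for miR-199a-5p and 62.5% for miR-92b-5p. No 2 of them share a seed.

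miR-671-5p, which is known to pair almost fully with the circular RNA Cdr1as and to direct its slicing, comes from an exon of Chpf2 (chr5:24592132-24592154, plus). It held 6826, 3970 and 2417 normalised read counts in SHAM and 947, 1098 and 1081 in SCI. Even the lowest SHAM value, that of replicate 3, lay well above the highest SCI value. The SCI mean was 0.152, 0.262 and 0.431 of the 3 SHAM values, and the log2 fold change was -2.08 ± 0.39 (edgeR adjusted p = 0.108). Against SHAM replicate 3 alone it was -1.17 (edgeR adjusted p = 0.019), and with an offset for GC content and all libraries -0.65 (edgeR adjusted p = 0.351). The other arm of the hairpin, miR-671-3p, lay below every SHAM library too, with 1573, 713 and 567 against 475, 386 and 407. The log2 ratio of the Mir671 arms, 5p to 3p, lay below the SHAM range, at 2.12, 2.47 and 2.09 in SHAM and 0.995, 1.51 and 1.41 in SCI.

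A pair of miRNAs known from mesenchymal cells and fibroblasts, miR-214-3p and miR-199a-5p, stood next. miR-214-3p, in an exon of the Dnm3 antisense transcript Dnm3os (chr1:162223438-162223459, plus), held 134, 103 and 72.7 in SHAM and 29.1, 37.6 and 28.7 in SCI. miR-199a-5p held 1180, 1227 and 856 against 553, 470 and 418, with differences of -1.30, -1.36 and -0.84 log2 units from SHAM replicates 1 to 3. Their partner arms did not move alike. miR-214-5p, at a mean count of 10.4, differed by -1.68, -2.98 and -1.65. The merged miR-199a-3p and miR-199b-3p differed by 0.53, 0.85 and -0.63, so they were lower than SHAM replicate 3 only. miR-483-3p, from an intron of Igf2, held 798, 957 and 128 against 71.4, 92.1 and 25.5. SHAM replicate 3 was much nearer to SCI here than the other SHAM libraries were, by -1.20 against -3.83 and -4.09.

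miR-150-3p, the passenger arm of a lymphocyte miRNA, held 151, 83.3 and 129 in SHAM and 55.4, 43.2 and 44.7 in SCI. Its log2 fold change was -1.37 ± 0.35 with all libraries (edgeR adjusted p = 0.108) and -1.38 against SHAM replicate 3 alone (edgeR adjusted p = 0.048). With an offset for GC content it was -0.70 (edgeR adjusted p = 0.400). The loaded arm miR-150-5p overlapped between the groups, at 28989, 15565 and 15063 against 12968, 14980 and 16314. miR-92b-5p held 504, 337 and 174 against 98.4, 106 and 92.5. The passenger arm of neuronal miR-128, miR-128-2-5p in an intron of Arpp21, held 1269, 1473 and 349 against 220, 227 and 266. miR-1224-3p, in an intron of Vwa5b2, held 312, 283 and 37.2 against 30.5, 24.0 and 18.3. The differences of miR-128-2-5p and miR-1224-3p from SHAM replicate 3 were -0.56 and -0.62 log2 units, and those from the other SHAM libraries were -2.42 or lower. miR-135a-1-3p held 98.8, 203 and 79.2 against 56.8, 62.4 and 37.5, and miR-497a-3p 71.7, 66.7 and 64.6 against 38.1, 56.0 and 42.3.

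**Figure D1:**
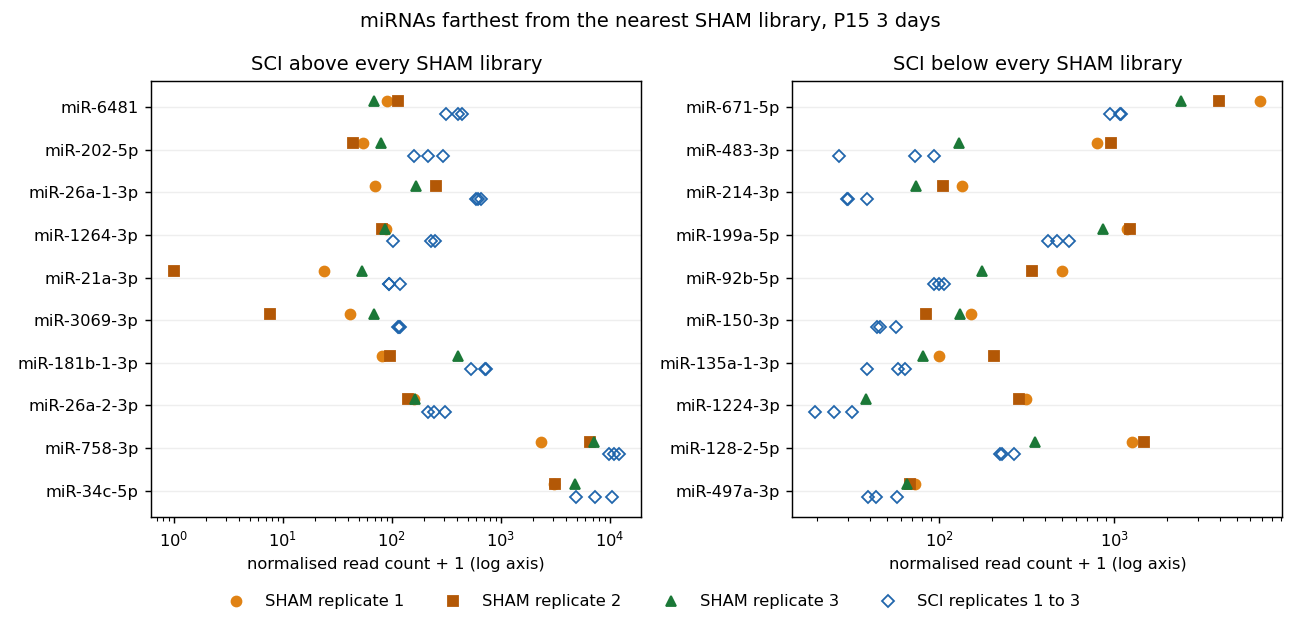
Normalised read count + 1 on a log axis for the 10 miRNAs of mean count 50 or more that lay farthest above (left) and below (right) the nearest SHAM library. Filled symbols are the 3 SHAM libraries and open diamonds the 3 SCI libraries; for miR-181b-1-3p, miR-483-3p, miR-1224-3p and miR-128-2-5p the green triangle (SHAM replicate 3) lies next to SCI and the other 2 SHAM libraries far from it.

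The difference from SCI depended on which SHAM library was used. Over the 1008 miRNAs, the median size of the log2 difference between the SCI mean and SHAM replicates 1, 2 and 3 was 0.93, 1.001 and 0.23. Between SCI libraries it was 0.18 to 0.21. SHAM replicate 3 lay farther from SHAM replicates 1 and 2 (0.83 and 1.02) than from any SCI library (0.24 to 0.28). SHAM replicates 1 and 2 differed from each other by 0.59. From the mean of the P15 12 h SHAM group, which has libraries of its own, the 3 SHAM libraries differed by 0.80, 0.87 and 0.35, and the SCI libraries by 0.39 to 0.45.

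The SCI mean was over 1 log2 unit higher than SHAM replicates 1, 2 and 3 for 197, 217 and 34 miRNAs, and over 1 lower for 270, 290 and 25. All 3 SCI libraries lay above both SHAM replicates 1 and 2 but below SHAM replicate 3 for 101 miRNAs. The reverse held for 65. let-7d-3p was among the plainest cases of dependence on the control, with 254620, 349470 and 19426 normalised read counts in SHAM and 18987, 19074 and 20646 in SCI. It differed by -3.70 and -4.16 log2 units from SHAM replicates 1 and 2 and by 0.01 from SHAM replicate 3. miR-574-5p held 3785, 4846 and 221 against 186, 155 and 144, with differences of -4.55, -4.91 and -0.46.

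GC content moved with these differences in SHAM replicates 1 and 2. Across miRNAs, which are not independent replicates and share the libraries, Pearson's r between the difference and the GC content of the most abundant read was -0.44 and -0.47 for SHAM replicates 1 and 2 and -0.04 for SHAM replicate 3 (n = 1008). The 223 miRNAs of 60% GC or more had median differences of -1.54, -1.85 and -0.05, and the 178 under 40% had 0.59, 0.72 and -0.01. Of the GC-rich 223, 47 lay below every SHAM library and 9 above, against 11.4% and 13.5% of all miRNAs. Of the 178 GC-poor, 4 lay below and 34 above, against the same shares. An offset for GC content in the fit brought several of the miRNAs described above nearer to 0. The log2 fold change went from -3.28 to -2.05 for miR-483-3p, from -3.04 to -1.99 for miR-1224-3p, from -2.10 to -1.08 for miR-128-2-5p, from -1.75 to -0.82 for miR-92b-5p and from -1.67 to -1.07 for miR-214-3p.

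**Figure D2:**
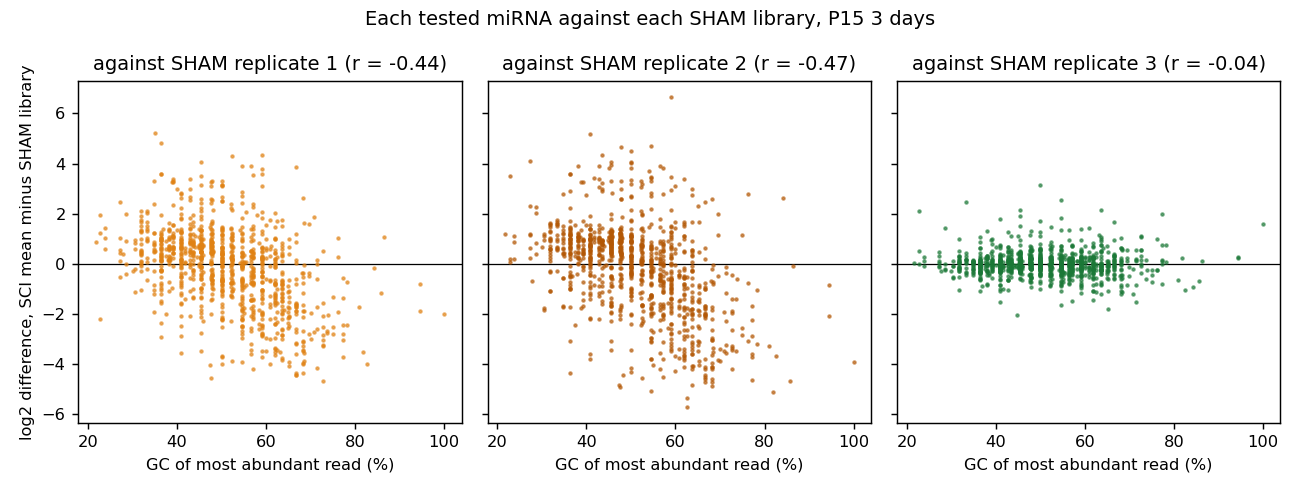
Log2 difference of the SCI mean from SHAM replicate 1, 2 and 3 (panels) against the GC content of the most abundant read, 1 point per tested miRNA (n = 1008). Points fall from left to right in the first 2 panels (r = -0.44 and -0.47) and lie in a flat band in the third (r = -0.04).

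The study's own account of its sequencing names 9 miRNAs, picked across all its groups. For miR-26a-1-3p the groups it lists include P15 3 days, so the values here are not independent of that choice. For miR-7b-3p its sequencing lists every group except P15 3 days. By qPCR, which included further animals, the study did report this miRNA as higher in SCI in that group too. For the other named miRNAs the study's text does not say which groups were meant, so their values may not be independent of the choice. With the other arms of the miR-7 hairpins, the 9 miRNAs are described here by library. Mature sequences of the miR-7 arms are shown because the 5p arms share one seed and the arms miR-7b-3p and miR-7a-2-3p share another.
miR-7b-5p: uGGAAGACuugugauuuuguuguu
miR-7a-5p: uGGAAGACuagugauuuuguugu
miR-7b-3p: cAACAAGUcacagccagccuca
miR-7a-2-3p: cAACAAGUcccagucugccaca
miR-7a-1-3p: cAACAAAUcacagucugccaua
miR-7a-5p comes from 2 hairpins, Mir7-1 in an intron of Hnrnpk and Mir7-2, and its reads cannot be divided between them.

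miR-7b-3p held 887, 4023 and 887 normalised read counts in SHAM and 3680, 3691 and 2339 in SCI. All SCI values lay above SHAM replicates 1 and 3 and all below SHAM replicate 2. The SCI mean was 3.57-fold, 0.787-fold and 3.57-fold the 3 SHAM values. The log2 fold change was 0.76 ± 0.57 (edgeR adjusted p = 0.424) with all libraries and 1.91 (edgeR adjusted p = 0.043) against SHAM replicate 3 alone. Its 5p partner, miR-7b-5p, which neurons and endocrine cells carry, held 21020, 40613 and 58576 against 70070, 51752 and 61144. miR-7a-5p held 33882, 69777 and 97444 against 114745, 102202 and 108042, above every SHAM library, with a difference of 0.15 log2 units from SHAM replicate 3. miR-7a-1-3p held 4122, 4490 and 5621 against 6477, 6301 and 7168, also above every SHAM library. miR-7a-2-3p, which shares its seed with miR-7b-3p, held 626, 1523 and 1029 against 1146, 1395 and 1150 and overlapped. SHAM replicate 2 was the highest SHAM library for both members of that seed, and not for the other miR-7 arms.

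Of the remaining 8, miR-26a-1-3p, miR-6481 and miR-671-5p kept 1 direction against each SHAM library, as given above. miR-668-3p, of the Dlk1-Dio3 cluster, held 19358, 12379 and 7303 against 6790, 5405 and 6624, below every SHAM library, but by 0.23 log2 units from SHAM replicate 3 (edgeR adjusted p = 0.162 over all, and a log2 fold change of 0.16 in place of -1.05 with the GC offset). miR-551b-5p held 48.4, 103 and 130 against 146, 155 and 151, above every SHAM library, by 0.21 from SHAM replicate 3. miR-5126, whose most abundant read is all G and C, held 1011, 3780 and 82.4 against 269, 281 and 211. It was therefore lower than SHAM replicates 1 and 2 in every SCI library and higher than SHAM replicate 3, by 1.60 log2 units. miR-1298-5p, from an intron of Htr2c, held 500, 2706 and 1080 against 7468, 4809 and 785, and SCI replicate 3 lay within the SHAM range. miR-709-3p was near the floor, with 15.5, 50.0 and 5.66 against 2.77, 8.01 and 1.59, and has no precise fold change.

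**Figure D3:**
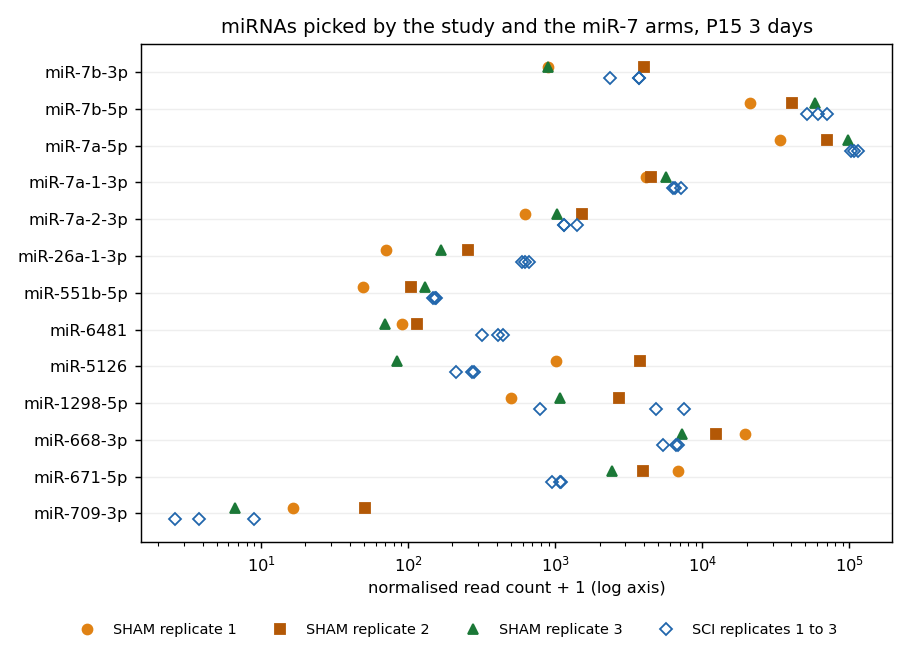
Normalised read count + 1 on a log axis for the 9 miRNAs the study names and the other miR-7 arms. Filled symbols are SHAM libraries and open diamonds SCI libraries; SHAM replicate 2 of miR-7b-3p lies among the SCI libraries, and SCI lies between SHAM replicate 3 and the other SHAM libraries for miR-5126.

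With SHAM replicate 3 as the only control, 9 miRNAs had an edgeR adjusted p under 0.05. miR-26a-1-3p, miR-6481, miR-7b-3p, miR-5126 and miR-5128 were higher by over 1 log2 unit. miR-671-5p and miR-150-3p were lower by over 1. miR-143-3p, of the vessel wall, and the myeloid miR-223-3p were lower by 0.69 and 0.97. miR-5128, miR-143-3p and miR-223-3p are named because they passed this test. Of all the miRNAs that passed it, 2 lay above and 2 below every SHAM library, against 13.5% and 11.4% of all tested miRNAs. They were picked against SHAM replicate 3, which is among these libraries, so their order is not independent of that choice. miR-223-3p held 496, 250 and 617 in SHAM and 288, 300 and 329 in SCI, so that SHAM replicate 2 lay below SCI and the other SHAM libraries above. miR-143-3p held 55553, 30654 and 91321 against 55671, 53828 and 55225, a narrow SCI range within a wide SHAM range. miR-5128 held 54.2, 587 and 67.9 against 193, 200 and 160.

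The let-7 family promotes differentiation, and its main arms share the seed GAGGUAG. The 9 tested members with this seed had median log2 differences of -0.75, -0.45 and -0.24 from SHAM replicates 1 to 3, and 5 of the 9 lay below every SHAM library, against 11.4% of all miRNAs. None was called. Representative sequences show how little the members differ.
let-7a-5p: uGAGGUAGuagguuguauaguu
let-7b-5p: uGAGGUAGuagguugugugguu
let-7c-5p: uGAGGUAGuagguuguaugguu
let-7e-5p: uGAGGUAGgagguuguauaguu
let-7b-5p held 292704, 316240 and 96383 normalised read counts in SHAM and 81352, 82478 and 80453 in SCI, or 0.278, 0.257 and 0.845 of the SHAM values. let-7c-5p held 548429, 586488 and 298771 against 256033, 237226 and 239775. let-7a-5p held 371241, 349354 and 230578 against 210757, 164262 and 170401, and let-7e-5p 114493, 107077 and 54621 against 49333, 46898 and 47244. For all 4 the SHAM libraries kept the order of replicates 1 and 2 high and replicate 3 near SCI. The log2 fold changes ran from -0.80 to -1.53 over all libraries and from -0.14 to -0.30 against SHAM replicate 3 alone. let-7f-5p (log2 fold change -0.09 ± 0.24) and let-7g-5p (0.01 ± 0.24) overlapped, with differences from SHAM replicate 3 of -0.27 and -0.16. The longer list of 21 let-7 arms had 5 above and 6 below every SHAM library, against 13.5% and 11.4% of all miRNAs. Its medians were -0.09, 0.10 and -0.14 against SHAM replicates 1 to 3.

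Of the 26 seed families with 3 or more tested members, the median difference had 1 sign against all 3 SHAM libraries in 9. Of these, 5 were higher and 4 lower. Among single miRNAs, the SCI mean lay above each SHAM library for 246 of 1008 and below each for 223. The families thus had no larger share with 1 sign than single miRNAs. The miR-200b seed (AAUACUG), of epithelial cells, was higher by 0.95, 0.93 and 0.86, but all 3 members overlapped. Its miR-200b-3p held 755, 483 and 718 in SHAM and 1119, 580 and 3428 in SCI, and its log2 fold change of 1.38 ranged from 0.42 to 1.90 with 1 library left out. The miR-34 seed (GGCAGUG) was higher by 1.04, 0.90 and 0.42, and the miR-29 seed (AGCACCA), which is abundant in mature neurons and in astrocytes, by 0.16, 1.504 and 0.08. miR-29a-3p held 633660, 239884 and 686396 in SHAM against 648008, 670086 and 816789, so that SHAM replicate 2 alone lay far off. With total miRNA reads as the scale in place of TMM, the median of all miRNAs moved from -0.02 to -0.17, and the miR-29 difference from SHAM replicate 1 turned to -0.08.

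Oligodendrocytes are the myelinating cells of the brain and cord. Of the 5 tested members of their list, 4 lay above every SHAM library, against 13.5% of all miRNAs, and the medians were 0.46, 1.38 and 0.43 against SHAM replicates 1 to 3. None was called. miR-219a-2-3p held 12992, 5463 and 13810 in SHAM and 20519, 16468 and 19236 in SCI. miR-219a-5p held 10422, 7213 and 11473 against 16181, 12899 and 13355, and miR-338-5p 6456, 3343 and 6101 against 8916, 7950 and 9813. miR-338-3p overlapped, with 32429, 13729 and 29089 against 34138, 31805 and 41947. The median stayed above 0 under every scaling tried, at 0.50 to 0.72. The list left out a separate tested miR-219a-5p entry, from the hairpin Mir219a-1. Its differences from SHAM replicates 1 to 3 were 1.08, 0.64 and -0.03, so it did not lie above every SHAM library.

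Among neuronal miRNAs, 2 of 17 tested lay above and 1 below every SHAM library, near the 13.5% and 11.4% of all miRNAs, 0 were called, and the medians were 0.31, 0.63 and -0.13. miR-128-3p, which restrains neuronal excitability, lay above every SHAM library, with 1136853, 956096 and 2119614 against 2152678, 2208775 and 2343397. Its distance from SHAM replicate 3 was 0.08 log2 units. miR-124-3p held 127737, 104553 and 123548 against 123145, 166448 and 160757 and overlapped. The 4 arms of the activity-regulated miR-132 and miR-212 cluster all overlapped, with medians of -0.45, 0.97 and -0.15.

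The list of miRNAs that rise in injury-reactive glia had 8 tested members. Of these, 2 lay above and 0 below every SHAM library, against 13.5% and 11.4% of all miRNAs, and the medians were 0.22, 0.89 and -0.09. Among 12 miRNAs of microglia and leukocytes, 0 lay above and 1 below, against the same 13.5% and 11.4%, with medians of 0.01, 0.43 and -0.12. Summed levels of that list were 38246 to 72718 in SHAM and 62277 to 75337 in SCI. The red blood cell list, whose miR-451a and miR-144 enter with blood left in the tissue, summed to 8643 to 17461 in SHAM and 12824 to 14170 in SCI, inside the SHAM range. The vessel wall list summed to 200861 to 454387 and 362901 to 384061. For neither blood nor vessel lists did the groups separate.

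The miRNAs of choroid plexus and ependyma, the epithelium that makes cerebrospinal fluid and lines the ventricles, had 17 tested arms. Of these, 4 lay above every SHAM library and 0 below, against 13.5% and 11.4% of all miRNAs, with medians of 1.04, 0.60 and 0.51. Some members hosted in Htr2c were high in SCI replicates 1 and 2 and near SHAM in SCI replicate 3. Others from that gene were not, such as miR-764-5p, outside the list, with differences of -2.45, -2.75 and 0.23 from SHAM replicates 1 to 3. miR-448-3p held 42.6, 227 and 141 in SHAM and 594, 494 and 137 in SCI, and miR-1912-3p 5.81, 20 and 7.27 against 74.2, 56.8 and 10.4, the first of these from 3 reads. miR-204-5p, the most abundant member, held 43033, 53588 and 25251 against 40189, 31908 and 23722 and did not follow them. The list as a whole summed to 33701 to 62474 in SHAM and 31931 to 63693 in SCI.

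SCI replicate 3 stood apart in epithelial and sensory miRNAs. The miR-200 family summed to 2288, 1813 and 2609 in SHAM and 3957, 1947 and 12963 in SCI. The miR-183 cluster, of sensory cells, summed to 209, 257 and 368 against 771, 307 and 3441. miR-182-5p held 194, 240 and 345 against 721, 279 and 3241, and miR-200a-3p 922, 603 and 1146 against 1749, 739 and 5942. SCI replicate 2 lay inside the SHAM range in both, and SCI replicate 3 held the highest sums. The median log2 fold changes were 1.72 and 2.43 over the 7 and 3 tested members, and 0 of them were called.

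The imprinted Dlk1-Dio3 cluster on chromosome 12, expressed from the maternal allele and rich in neuronal miRNAs, had 94 tested arms. Of these, 29 lay above every SHAM library and 1 below, against 13.5% and 11.4% of all miRNAs. None was called, and 8 were higher and 7 lower at an unadjusted p under 0.05. The median differences were 0.70, 0.47 and 0.09, against 0.11, 0.16 and -0.01 over all tested miRNAs. miR-127-3p, the most abundant member, held 236355, 174304 and 397427 against 462106, 412641 and 526786, which is 1.97-fold, 2.67-fold and 1.17-fold the SHAM values. The cluster's median stayed above 0 with each scaling, at 0.18 with total miRNA reads. The Sfmbt2 cluster on chromosome 2, whose hairpins are near copies of each other and share reads, went the other way. Of 42 tested arms, 9 lay below and 3 above every SHAM library, with medians of -0.80, -0.65 and -0.15.

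Several abundant families lay above SHAM replicates 1 and 2 and at or below SHAM replicate 3. The miR-30 list had medians of 0.52, 0.98 and -0.04 over 11 tested arms, the miR-181 list 0.91, 0.57 and -0.09 over 10, and the miR-17-92 cluster with its paralogs 0.48, 0.61 and -0.21 over 24. The miR-26 list had 0.18, 0.73 and -0.03 over 5, and the miR-15 list 0.25, 0.02 and -0.15 over 13. miR-125b-5p lay above every SHAM library, with 339046, 343054 and 409366 against 428654, 443843 and 455451. Its list, with miR-99, had medians of 0.40, 0.38 and 0.04 over 11 arms, and the miR-23-27-24 clusters 0.18, 0.61 and 0.04 over 11. The miR-7 list had 1.53, 0.56 and 0.24 over 5. The 12 tested miRNAs of other tissues such as muscle and skin had medians of 0.27, 0.58 and 0.00.

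**Figure D4:**
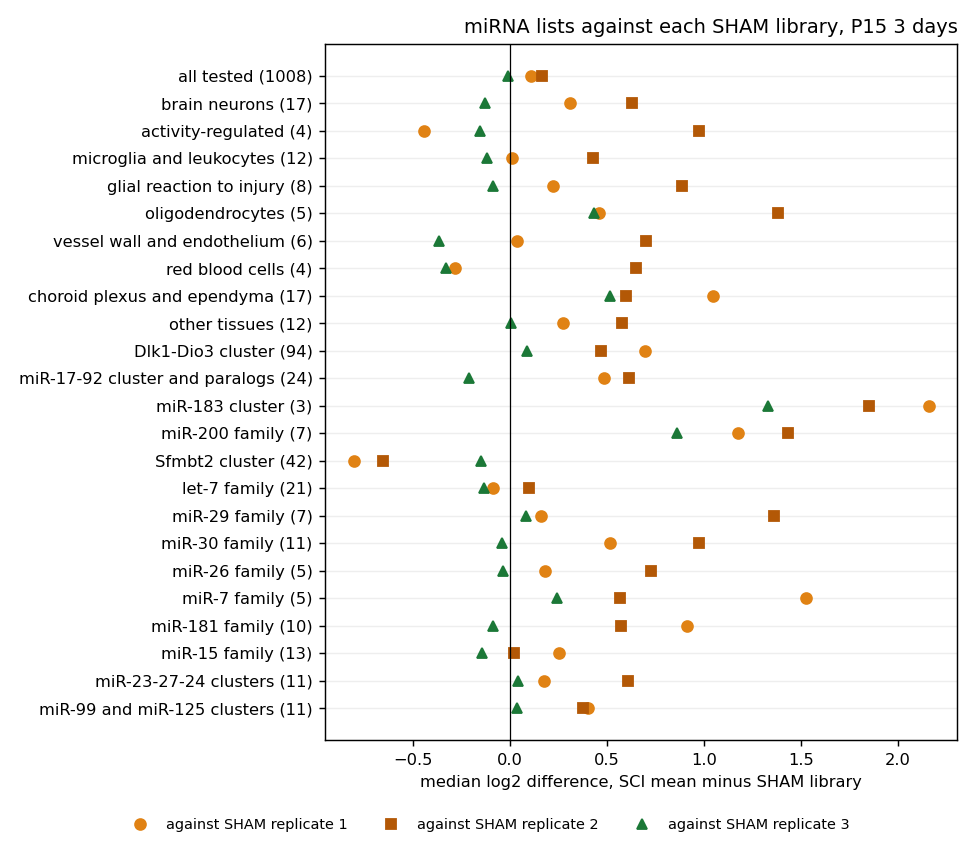
Median log2 difference of the SCI mean from each SHAM library, for each list of miRNAs with 3 or more tested members (number tested in brackets). Symbols mark the SHAM library. The miR-183, miR-200, choroid plexus and oligodendrocyte lists lie right of 0 against all 3. So do the miR-7, Dlk1-Dio3, miR-29, miR-99 and miR-125, miR-23-27-24 and other tissues lists, but nearer to 0 against SHAM replicate 3. Most lists other than the first named lie right of 0 against SHAM replicate 2 and near 0 against SHAM replicate 3.

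The ratio of the 2 arms of a hairpin does not depend on the scaling of a library. Both arms reached a mean count of 50 in 206 hairpins. The log2 ratio of 5p to 3p lay above every SHAM library in 36 (17.5%) and below in 32 (15.5%), and the median difference over all 206 was 0.02. By the difference between group means, the ratio was lowest against SHAM in Mir21a, given above, then in Mir574, with -0.35, 0.37 and -2.42 in SHAM and -2.90, -2.97 and -3.06 in SCI, and in Mir1198, with 6.83, 7.51 and 5.69 against 5.02, 4.70 and 5.05. By the same measure it was highest against SHAM in Mir328, with -10.4, -9.39 and -7.82 against -7.22, -7.07 and -7.15, and in Mir485, with -3.00, -3.44 and -0.75 against -0.63, -0.39 and -0.22. By the distance from the nearest SHAM value, Mir671 (-0.79) and Mir1198 (-0.77) came before Mir574 (-0.55), and Mir3470b (0.82) before Mir328 (0.68). Each had p = 0.10 in the exact permutation test, the lowest possible. In these 5 hairpins SHAM replicate 3 was the SHAM library closest to SCI. Mir7b had 4.56, 3.34 and 6.04 against 4.25, 3.81 and 4.71 and overlapped, and the share of its 3p arm was thus highest in SHAM replicate 2.

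The effect of SCI was compared with that at 12 h in P15 mice and at 3 days in P90 mice, each with its own 3 SHAM libraries. No miRNA was called for a difference in SCI effect between P15 3 days and P15 12 h (0 of 925 with an edgeR adjusted p under 0.05, 144 with an unadjusted p under 0.05). None was called between P15 3 days and P90 3 days either (0 of 904, 138 unadjusted). DESeq2 called 61 and 58. miR-7b-3p had a log2 fold change of 0.76 at P15 3 days, 1.80 ± 0.24 at P15 12 h and 2.70 ± 0.19 at P90 3 days, and the differences of -0.99 and -1.82 had edgeR adjusted p = 0.495 and 0.285. The first of these miR-7b-3p differences was 0.026 without SHAM replicates 1 and 2 and 0.070 without SHAM replicate 2. miR-671-5p had -2.08, -0.32 and -1.32, and miR-26a-1-3p 1.97, 1.25 and 0.94. miR-6481 had 2.15, -0.29 and 2.13, so that P15 3 days stood with P90 3 days in value, and the difference from P15 12 h had edgeR adjusted p = 0.205. miR-1298-5p had 1.62 at P15 3 days, -1.45 at P15 12 h and -3.50 at P90 3 days, with edgeR adjusted p = 0.239 and 0.162 for the differences.

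**Figure D5:**
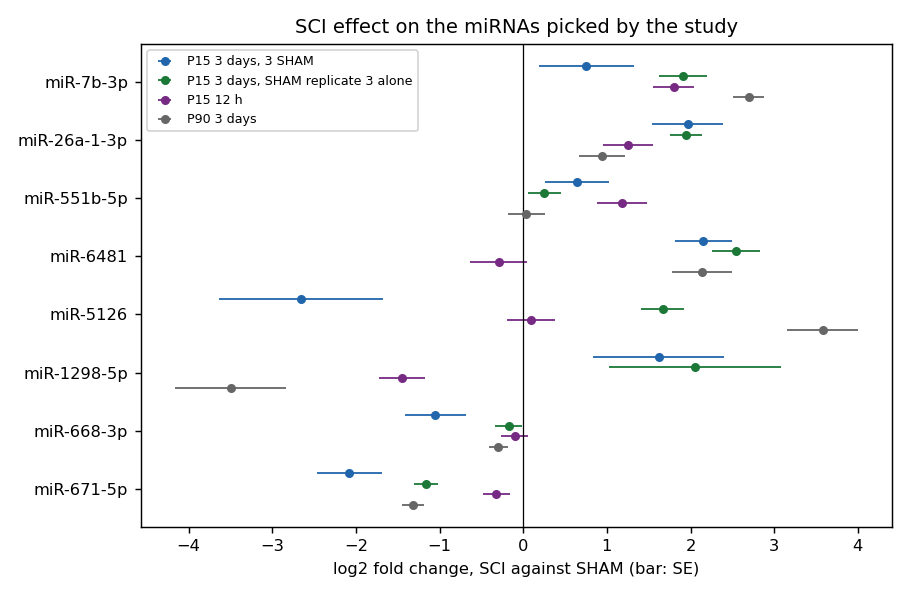
Log2 fold change of SCI against SHAM (points) with its SE (bars) for 8 miRNAs the study names, at P15 3 days with 3 SHAM libraries, at P15 3 days with SHAM replicate 3 alone, at P15 12 h and at P90 3 days. miR-5126 changes side between the first 2, and miR-7b-3p, miR-26a-1-3p and miR-671-5p keep one side throughout.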

How the data were processed

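The authors trimmed adapters and the degenerate HD nucleotides from the reads and deposited, for each library, the count of every distinct read, without normalization. The degenerate nucleotides are gone, so PCR copies cannot be told from molecules. The build named in the submitters' processing notes is GRCm38, and the study later mapped reads without mismatch and used DESeq2. Whether the deposited reads were filtered by mapping is not given in the sources used here. Reads of at least 18 nt that matched an arm of the 1178 named GENCODE M21 hairpins over their whole length, sense and without mismatch, were summed per arm. Reads matching more than 1 miRNA were left out. RefSeq gave a mature sequence for 1358 of the 1715 miRNAs.

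Counts were scaled with TMM to the mean library and tested with the quasi-likelihood fit of edgeR 4.0.16 (R 4.3.3), 3 SCI against 3 SHAM, over miRNAs with a mean normalised count of at least 5. DE miRNAs had p under 0.05 after Benjamini-Hochberg adjustment and differed by more than 1 log2 unit. Differences from single SHAM libraries are of log2(normalised count + 1). The p-values of edgeR set the group difference against the spread between libraries within groups, estimated with information from all miRNAs. With SHAM replicate 3 alone, that spread comes from the SCI libraries only. Counts of all replicate pairs differed by more than sampling noise, so none was treated as a copy. DESeq2 1.42.0 and the other alternatives are in the closing section.

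Described miRNAs were those the study names with the miR-7 arms, the 10 farthest above and below the nearest SHAM library at a mean count of 50 or more, leading members of 24 lists, and the arm ratios. Other arms of these hairpins, let-7d-3p, miR-574-5p, miRNAs that passed an alternative test and further list members were picked after their values were seen. Members, lists and rules were chosen with earlier results of these data known. A library of 8369595 to 44026755 reads detects a miRNA down to 3 reads, which is 2.08 to 10.0 normalised counts. The qPCR and cell culture work of the study was not analysed here. Genes near a hairpin come from GENCODE M21 (GRCm38).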

Additional observations from a re-analysis of the deposited data

Results flagged for a closer look

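The SCI libraries lay above the SHAM libraries in a class of reads outside the miRNA comparison. Reads matching RNAs that GENCODE annotates as miscellaneous, such as 7SK and Y RNAs, made up 0.447% ± 0.0277 (SD, n = 3) of the reads of at least 18 nt in SCI and 0.392% ± 0.00324 (SD, n = 3) in SHAM. The libraries held 0.392, 0.396 and 0.389% in SHAM and 0.471, 0.416 and 0.453% in SCI. The exact permutation test, two-sided, gave p = 0.10, the lowest that 3 against 3 allows, and the other 18 libraries ranged from 0.157 to 0.497%. This was 1 of 9 such read shares compared, and the cause was not tested.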

How the results depend on the processing

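The number of DE miRNAs depended on the test and on SHAM replicate 3. It was 0 with edgeR and 0 with its earlier fit (chosen after seeing the data), DESeq2's size factors, total miRNA reads, both other filters, the most abundant read only, shared reads split, a minimum of 20 nt, the GC offset, the replicate block with GC offset, and a log2 limit of 0.5 or none. It was 117 with DESeq2, 148 with all 24 libraries, 7 without SHAM replicates 1 and 2, and 10 there with DESeq2 (chosen after seeing the data). Leaving out 1 library gave 0 to 353, the 353 without SHAM replicate 3 and 0 without any other. Counts at unadjusted p under 0.05 were 390 with all 24 libraries, 88 without SHAM replicates 1 and 2, 94 there with DESeq2, and 92 to 589 with 1 library left out (589 without SHAM replicate 3). 

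Deviations of same-numbered SHAM and SCI libraries correlated by -0.03, 0.07 and 0.08, and those of differently numbered ones by -0.11 to 0.05. So few values cannot tell whether the replicate numbers pair the libraries. With the replicate block, 121 miRNAs were called, 11 of them higher, and the samples share only a number.

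miRNAs above every SHAM library numbered 271 against SHAM replicate 3 alone and 158 to 368 with 1 library left out, and those below 315, 136 to 324 and, by the most abundant read only, 74. Both high ends are without SHAM replicate 3. Calls that differ from P15 12 h were 61 with DESeq2 and 0 to 265 with 1 library left out. From P90 3 days they were 58 and 0 to 238. The share of snRNA, which differed by -0.181 percentage points, differed by 0.0866 over reads of 20 nt or longer.

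Of 1130 log2 fold changes of 54 miRNAs under an alternative, 25 turned direction. miR-5126 (-2.66) was 1.67 without SHAM replicates 1 and 2, 1.63 there with DESeq2, 1.04 with the GC offset and 1.12 with that and the block. miR-5128 (-0.23) was 1.49, 1.45, 0.74 and 1.20 in these 4, 0.064 with all 24 libraries, 0.61 by the most abundant read, 0.48 with the block and -0.68 to 1.62 with 1 library left out, the latter without SHAM replicate 2. miR-668-3p (-1.05) was 0.16 with the GC offset and 0.23 with that and the block, and miR-671-3p 0.13 in the last. miR-21a-5p (0.24) was -0.20, -0.24, -0.086 and -0.059 in the same 4 settings as miR-5126. let-7d-3p (-3.41) was 0.058 and 0.023 in the first 2. miR-143-3p (-0.11) was 0.029 with the block and -0.36 to 0.42 with 1 library left out. miR-7a-2-3p (0.22) was -0.0029 with total miRNA reads and -0.043 to 0.62 with 1 library left out, the low end without SHAM replicate 1, and the miR-29 seed family against SHAM replicate 1 (0.16) was -0.077 with total miRNA reads. Between comparisons, the difference of miR-7b-3p from P15 12 h (-0.99) was 0.026 without SHAM replicates 1 and 2 and -1.39 to 0.070 with 1 library left out, the high end without SHAM replicate 2, that of miR-671-5p from P90 3 days (-0.69) 0.16 there, and that of miR-6481 from P90 3 days (0.14) -0.12 with DESeq2 and -0.10 to 0.33 with 1 library left out, the low end without SHAM replicate 3. The cause was not tested.

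Depth limited the shallow libraries most, as 1 read was worth 3.33 normalised counts in SHAM replicate 2 and 0.693 in SCI replicate 1.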
